A study of Arabidopsis thaliana with 6 samples.

Results

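Cytochrome P450 genes were followed in Arabidopsis thaliana seedlings of 3 genotypes. Members were the genes whose annotated symbol is CYP followed by 2 or 3 digits and a letter, measured by a probe set that the annotation assigns to 1 gene. This rule found 23 of the 13356 genes tested, each with 1 probe set. They belong to 5 of the 40 P450 families in the RefSeq gene table, where 236 genes carry such a symbol. By family number, 19 members are in CYP71, all of the CYP71B subfamily, and CYP51, CYP78, CYP79 and CYP84 have 1 member each. The values below therefore describe mainly CYP71B, of which the table lists 36 genes.

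RNA from whole seedlings was hybridised to 6 Affymetrix arrays, 2 each from wild type (WT), bin4-1 and bin4-2. Both mutants carry an allele of BIN4, which encodes a component of the plant topoisomerase VI complex. The labels give neither the ecotype, the age of the seedlings nor the kind of lesion in either allele, and no group carries a treatment. Nothing states that the 2 arrays of a genotype came from separate cultures, so the p-values cover only the scatter among these arrays, part or all of which may be technical.

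P450 enzymes are haem-containing monooxygenases, most of them anchored in the endoplasmic reticulum and supplied with electrons by a P450 reductase. In plants they act in hormone synthesis and turnover, in lignin, cutin and sterol synthesis, and in the many defence compounds of each species. CYP71 is one of the large families of specialised metabolism, and its CYP71B genes often lie side by side on the chromosome. The best known CYP71B enzyme, CYP71B15 or PAD3, completes the synthesis of the defence compound camalexin. It was not analysed here.

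Levels are log2 of the deposited intensity. The median of an array lay between 4.7 and 4.76, and arrays of 1 genotype correlated at 0.995 to 0.997 across probe sets, against 0.906 to 0.917 between WT and mutant arrays. BIN4 itself was lower in both mutants, with a WT level of 3.86 ± 0.11 (SD, n = 2), a bin4-1 level of 3.33 ± 0.04 and a bin4-2 level of 2.98 ± 0.09. Of the green-tissue markers, 2 of 5 were measured, and RCA, Rubisco activase, and PRK, phosphoribulokinase, stood at 12.25 and 11.02 in WT, 10.06 and 8.62 in bin4-1 and 10.42 and 8.98 in bin4-2. Of the root-hair markers, 2 of 5 were measured, and the expansin genes EXPA18 and EXPA7 stood at 5.75 and 4.82 in WT, 4.66 and 4.61 in bin4-1 and 4.29 and 4.25 in bin4-2. EXPA7 did not pass limma's test in bin4-1 (-0.21, adjusted p = 0.174). The part of a changed organ or tissue make-up in the results below was not tested, and in whole seedlings fewer cells of a type and less RNA per cell cannot be told apart.

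Against WT, a few P450 genes changed strongly in both mutants and most changed little. CYP71B23, CYP71B6, CYP71B24, CYP71B28 and CYP84A4 rose in each allele, and CYP71B34, CYP71B35 and CYP71B37 fell in each allele. In limma's test at an adjusted p under 0.05, 5 members were higher and 4 lower in bin4-1, or 21.7% and 17.4% of the 23. Of all genes tested, 22% were higher and 25% lower in that comparison. In bin4-2, 5 members were higher and 5 lower (21.7% each), beside 21.1% and 26.6% of all genes. The shares of P450 genes called were thus near those of all genes, and the median log2 change of the members was -0.09 in each allele, beside -0.08 and -0.09 for all genes. Both comparisons use the same WT arrays, so they are not independent of each other.

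For the mean of both alleles against WT, 5 members were higher and 4 lower, beside 23.2% and 28.8% of all genes. Changes of at least 2-fold were found for 3 higher members and 1 lower member, beside 7.17% and 6.66% of all genes. The same counts of at least 2-fold calls, 3 and 1, were found in bin4-1 (7.32% and 6.9% of all genes) and in bin4-2 (7.12% and 6.56%). All 4 mutant arrays lay above both WT arrays for 5 members and below both for 8, beside 25.9% and 35.8% of all genes, and the arrays overlapped for the other 10. The log2 changes of the members ran from -1.77 to 3.23. The limma standard errors of these changes were 0.09 to 0.13. They rest on 3 residual degrees of freedom and on 8.25 prior ones, which draw on the scatter of all genes.

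**Figure D1:**
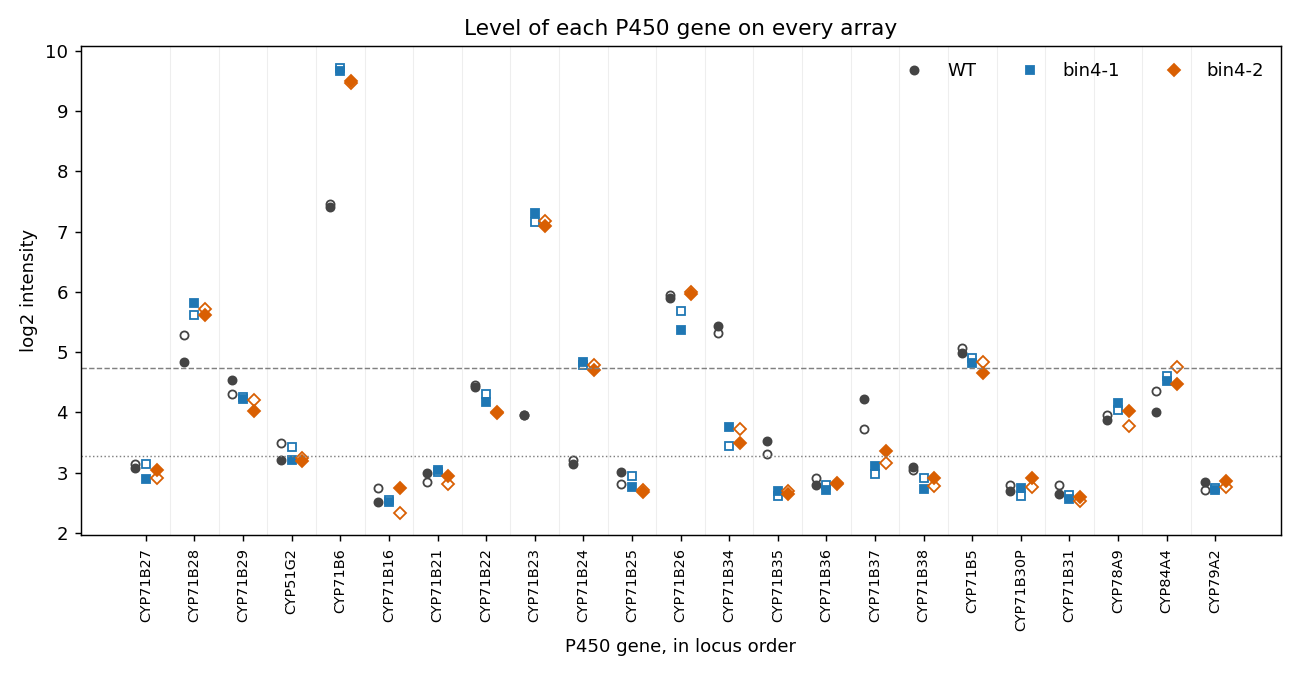
The log2 intensity of each of the 23 P450 genes (vertical axis) is shown in locus order, with filled symbols for replicate 1 and open symbols for replicate 2 of WT, bin4-1 and bin4-2. The dashed line is the mean of the 6 array medians and the dotted line that of their lower quartiles. CYP71B6, CYP71B23 and CYP71B24 stand well above WT on all 4 mutant arrays, CYP71B34 stands below it, and 9 genes stay under the lower quartile throughout.

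CYP71B23 had the largest rise of the 23 genes. Its log2 level was 3.95 on each WT array, 7.30 and 7.16 in bin4-1 and 7.09 and 7.17 in bin4-2. Every mutant array was far above both WT arrays, and the mutant arrays differed little among themselves. The rise was 9.74-fold in bin4-1 (log2 change 3.28 ± 0.10, limma SE, adjusted p = 6.64e-10) and 9.09-fold in bin4-2 (log2 change 3.18 ± 0.10, adjusted p = 7.91e-10). Its mean change over both alleles lay at the 99.4th percentile of the changes of all genes tested.

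CYP71B6 had the next largest rise. This enzyme is known to convert indole-3-acetonitrile, a breakdown product of indole defence compounds, towards indole-3-carboxylic acid. The log2 level was 7.41 and 7.45 in WT, 9.67 and 9.71 in bin4-1 and 9.50 and 9.46 in bin4-2. Replicates differed by at most 0.04, and the groups of mutant and WT arrays did not overlap. CYP71B6 rose 4.79-fold in bin4-1 (log2 change 2.26 ± 0.10, limma SE, adjusted p = 6.37e-09) and 4.13-fold in bin4-2 (log2 change 2.05 ± 0.10, adjusted p = 1.59e-08). In the list of 12 P450 genes of indole glucosinolates and camalexin, it was the 1 gene measured.

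CYP71B24 rose from a dim WT signal. The WT arrays gave log2 levels of 3.14 and 3.21, just below the lower quartile of those arrays (3.32 and 3.34), while bin4-1 gave 4.83 and 4.78 and bin4-2 gave 4.70 and 4.78. All mutant arrays were above both WT arrays. The log2 change was 1.63 ± 0.10 in bin4-1 (limma SE, adjusted p = 9.65e-08) and 1.57 ± 0.10 in bin4-2 (adjusted p = 1.56e-07), or 3.10-fold and 2.97-fold. No background level was set, so the size of these folds is uncertain.

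CYP71B28 and CYP84A4 rose by less than 2-fold. CYP71B28 gave log2 levels of 4.83 and 5.29 in WT, 5.81 and 5.62 in bin4-1 and 5.61 and 5.71 in bin4-2, so its WT arrays lay far apart but below every mutant array. Its log2 change was 0.66 ± 0.15 and 0.60 ± 0.15 in bin4-1 and bin4-2 (limma SE, adjusted p = 0.00261 and 0.00463). Without WT replicate 1 the changes of CYP71B28 were 0.43 and 0.37, still past the threshold (adjusted p = 0.0199 and 0.0373). CYP84A4, which is known to hydroxylate p-coumaraldehyde in the synthesis of the arabidopyrones, gave 4.01 and 4.36 in WT, 4.52 and 4.60 in bin4-1 and 4.48 and 4.76 in bin4-2. The lowest mutant array exceeded the higher WT array by a small margin. The log2 change of CYP84A4 was 0.37 ± 0.14 and 0.43 ± 0.14 (adjusted p = 0.0429 and 0.0214). Without WT replicate 1 the mean change over both alleles fell from 0.40 to 0.23 and no longer passed (adjusted p = 0.171), and the calls in single alleles were lost in the same way (adjusted p = 0.287 in bin4-1 and 0.163 in bin4-2). The bin4-1 call of CYP84A4 also ended without bin4-1 replicate 1 or replicate 2 (0.41 and 0.33, adjusted p = 0.095 and 0.168), and its bin4-2 call without bin4-2 replicate 2 (0.29, adjusted p = 0.18).

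CYP71B34 had the largest fall of the 23 genes. Its log2 level was 5.43 and 5.31 in WT, 3.76 and 3.44 in bin4-1 and 3.50 and 3.72 in bin4-2. The mutant arrays were all well below WT, and the alleles overlapped. The fall was 3.41-fold in bin4-1 (log2 change -1.77 ± 0.13, limma SE, adjusted p = 3.96e-07) and 3.39-fold in bin4-2 (log2 change -1.76 ± 0.13, adjusted p = 4.46e-07). At the 1.62nd percentile of all genes tested, this change was the one fall of at least 2-fold among the members.

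CYP71B35 and CYP71B37, which lie close to CYP71B34 on the chromosome, fell as well. CYP71B35 gave log2 levels of 3.53 and 3.31 in WT, 2.69 and 2.62 in bin4-1 and 2.65 and 2.69 in bin4-2, changes of -0.76 ± 0.11 and -0.75 ± 0.11 (limma SE, adjusted p = 1.14e-04 and 1.29e-04). Its mutant values lay close to the 5th percentile of the mutant arrays (2.53 to 2.59), so the size of the fall is uncertain. CYP71B37 gave 4.23 and 3.72 in WT, 3.12 and 2.98 in bin4-1 and 3.36 and 3.17 in bin4-2. The WT arrays of CYP71B37 were 0.51 apart, the widest gap between WT replicates among the members, and both still exceeded all mutant arrays. The log2 change of CYP71B37 was -0.92 ± 0.15 and -0.71 ± 0.15 (adjusted p = 3.49e-04 and 0.0023). Both bin4-1 arrays and bin4-2 replicate 2 gave CYP71B37 values under the lower quartile of those arrays (3.25, 3.29 and 3.22), so the size of its fall is uncertain as well. Without WT replicate 1 the change of CYP71B37 in bin4-2 was -0.46 (adjusted p = 0.016).

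Smaller falls passed the threshold in 1 allele or in the mean of both. CYP71B22 gave log2 levels of 4.43 and 4.45 in WT, 4.18 and 4.30 in bin4-1 and 3.99 and 4.01 in bin4-2, with all mutant arrays below WT. Its log2 change passed in bin4-2 (-0.44 ± 0.10, limma SE, adjusted p = 0.00376) and not in bin4-1 (-0.20 ± 0.10, adjusted p = 0.13), and its mean over both alleles was -0.32 (adjusted p = 0.00948). CYP71B5 gave 4.98 and 5.07 in WT, 4.82 and 4.91 in bin4-1 and 4.66 and 4.83 in bin4-2, so all mutant arrays were below WT by a small margin. It passed in bin4-2 at -0.28 ± 0.11 (adjusted p = 0.0475) and not in bin4-1 at -0.16 ± 0.11 (adjusted p = 0.242). The bin4-2 call of CYP71B5 was lost without any 1 of WT replicate 1, WT replicate 2, bin4-1 replicate 1, bin4-1 replicate 2 or bin4-2 replicate 1, with log2 changes from -0.33 to -0.20 and adjusted p from 0.0546 to 0.243. It was lost also with arrays centred on the median of genes (adjusted p = 0.0574) and with an intensity trend in the variances (adjusted p = 0.0878). A pass in 1 allele alone does not show that the alleles differ, and the test of that difference is given further on.

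CYP71B26 was the one member with both bin4-1 arrays on one side of the WT arrays and both bin4-2 arrays on the other. The log2 level was 5.90 and 5.95 in WT, 5.36 and 5.68 in bin4-1 and 5.96 and 6.00 in bin4-2. Both bin4-1 arrays lay below WT, while the bin4-2 arrays exceeded it by little, and the change in bin4-2 did not pass. The log2 change of CYP71B26 was -0.40 ± 0.12 in bin4-1 (limma SE, adjusted p = 0.0153) and 0.06 ± 0.12 in bin4-2 (adjusted p = 0.726). This call in bin4-1 ended without bin4-1 replicate 1 (-0.25, adjusted p = 0.202) and without WT replicate 2 (-0.38, adjusted p = 0.0541).

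**Figure D2:**
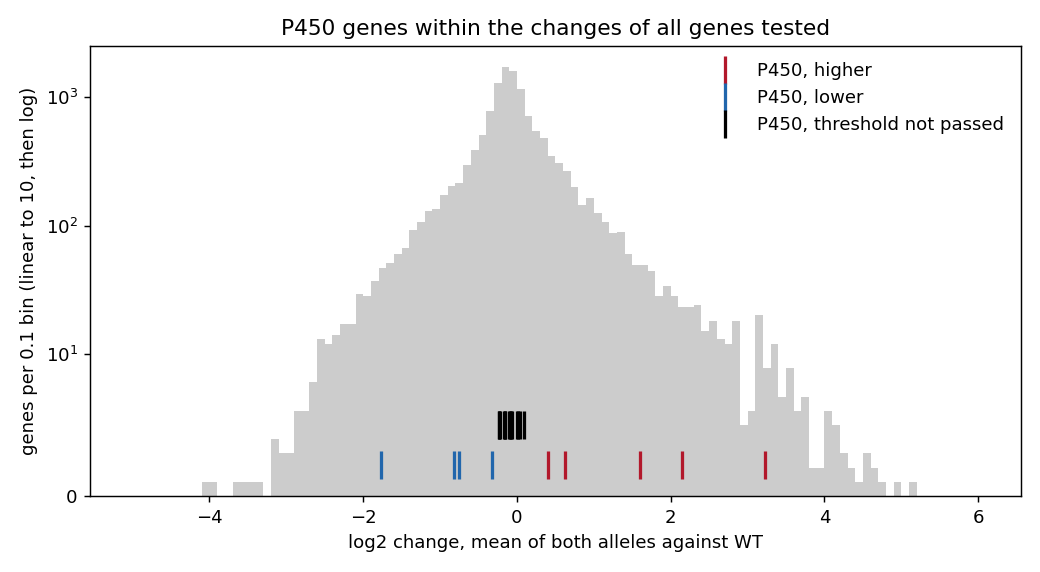
Grey bars count all 13356 genes by the log2 change of the mean of both alleles against WT (bins of 0.1, vertical axis linear to 10 and logarithmic above), and vertical strokes mark the 23 P450 genes at fixed heights. Most P450 genes lie around 0, while 5 rises (red) reach 3.23 and 4 falls (blue) reach -1.77.

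The remaining members did not pass in either allele. Their probe sets were dim in part: 9 of the 23 members lay below the lower quartile on all 6 arrays, namely CYP71B16, CYP71B21, CYP71B25, CYP71B27, CYP71B30P, CYP71B31, CYP71B36, CYP71B38 and CYP79A2. Of these, 0 passed limma's test in the mean of both alleles and 1 had an unadjusted p under 0.05, which was CYP71B38 (-0.24, adjusted p = 0.0534). The log2 level of CYP71B38 was 3.10 and 3.04 in WT, 2.73 and 2.91 in bin4-1 and 2.92 and 2.78 in bin4-2, with all mutant arrays below WT. Values of the 9 dim genes ran from 2.33, CYP71B16 in bin4-2, to 3.14, CYP71B27 in WT and in bin4-1. Of the 3112 genes that were as dim on every array, 11.7% were called in the mean of both alleles. Of the 14 members that were not as dim, 9 were called, beside 64.3% of all such genes. Brightness compares probe sets and not amounts of RNA. CYP71B27 and CYP51G2 are annotated as transcribed pseudogenes.

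Among the uncalled members are enzymes with known roles. CYP79A2, which converts phenylalanine to its oxime for benzylglucosinolate, had log2 levels of 2.84 and 2.71 in WT, 2.72 and 2.74 in bin4-1 and 2.86 and 2.77 in bin4-2. CYP71B31, which oxidises linalool in flowers, gave 2.65 and 2.80 in WT, 2.56 and 2.63 in bin4-1 and 2.60 and 2.53 in bin4-2. The growth regulator gene CYP78A9, which affects fruit and seed size, gave 3.87 and 3.95 in WT, 4.15 and 4.04 in bin4-1 and 4.02 and 3.78 in bin4-2. WT and mutant arrays overlapped for CYP79A2 and CYP78A9 and not for CYP71B31, whose mutant arrays were all slightly lower. The log2 changes of the mean of both alleles were 0.09 for CYP78A9 (95% interval -0.13 to 0.30), -0.15 for CYP71B31 (-0.35 to 0.05), and for CYP79A2 the interval was -0.20 to 0.19. CYP51G2, the pseudogene relative of a sterol demethylase, had a change of -0.08 (-0.32 to 0.15). CYP71B29 gave log2 levels of 4.54 and 4.30 in WT, 4.22 and 4.25 in bin4-1 and 4.03 and 4.21 in bin4-2. All its mutant arrays were below WT, and its change of -0.24 did not pass (adjusted p = 0.0619).

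By position, 16 members lie on chromosome 3, 3 on chromosome 1, and 2 each on chromosomes 2 and 5. The largest run goes from CYP71B16 (AT3G26150) to CYP71B37 (AT3G26330) on chromosome 3. In the RefSeq table it holds 24 protein-coding genes and pseudogenes, 18 of them CYP71B, and 11 of these are members. Within the run, 2 members rose (CYP71B23 and CYP71B24), 4 fell (CYP71B22, CYP71B34, CYP71B35 and CYP71B37) and 5 did not pass in the mean of both alleles. Of all genes tested, 23.2% were higher and 28.8% lower in that comparison. The rises were those of measured neighbours in the middle of the run, and CYP71B22, the measured member just before them, changed by -0.32. The other 3 falls lay at the far end of the run, where CYP71B36, between CYP71B35 and CYP71B37, changed by -0.06 (adjusted p = 0.624). The median log2 change of the 11 was -0.15.

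Genes of other families on both sides of this run were measured as well, 7 before it and 5 after it. Of these 12, 3 rose, 3 fell and 6 did not pass, with log2 changes of the mean of both alleles from -0.90 (AT3G26085) to 0.82 (AT3G26100). These counts stand beside 23.2% of all genes tested higher and 28.8% lower. The changes of the P450 genes in the run went from -1.77 to 3.23. Spreads of the P450 genes and of the genes beside them were not tested against each other.

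**Figure D3:**
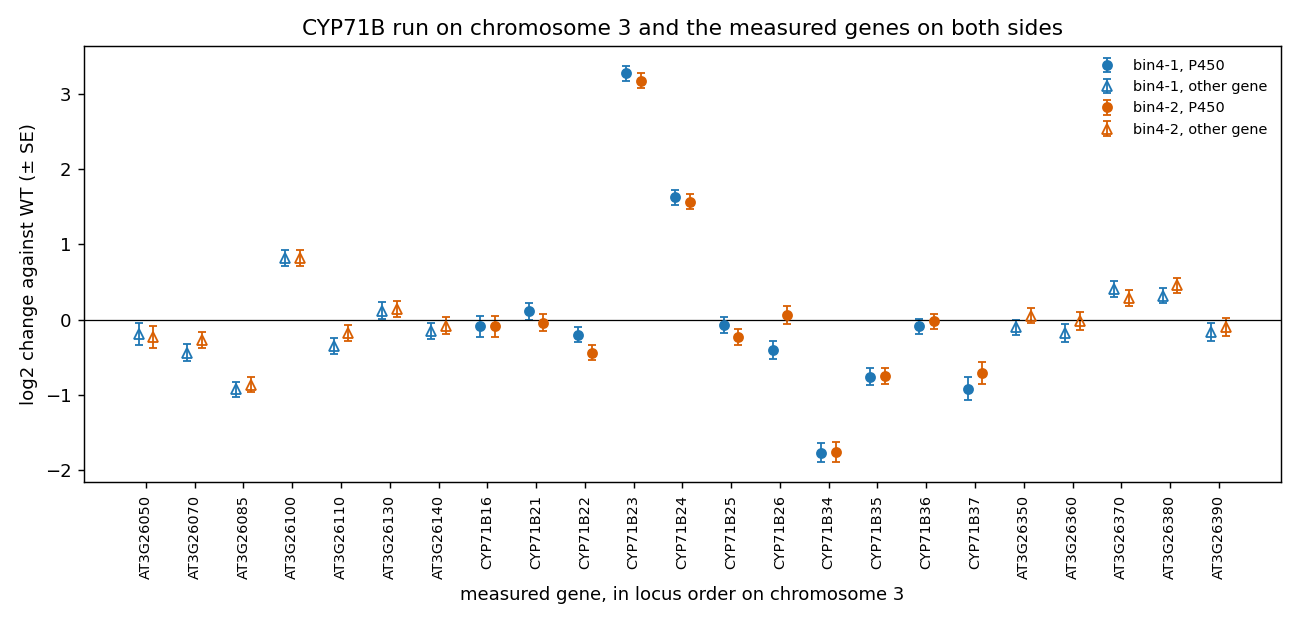
Log2 change against WT (vertical axis, ± limma SE) for the measured genes in and around the CYP71B run of chromosome 3, in locus order at equal spacing. Filled circles are P450 genes and open triangles other genes, blue for bin4-1 and orange for bin4-2. CYP71B23 and CYP71B24 stand at 1.57 to 3.28, CYP71B34 at -1.77 and -1.76, and the alleles lie close together at most genes.

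Each run was cut at its first and last measured member, so it may reach further on the chromosome. Of the shorter runs, the one on chromosome 1 holds 4 CYP71B genes between these ends, of which CYP71B27, CYP71B28 and CYP71B29 were measured. CYP71B28 alone of these passed, at 0.63 in the mean of both alleles. Farther along chromosome 3, CYP71B5, CYP71B30P and CYP71B31 had log2 changes of -0.22, 0.01 and -0.15, and none passed limma's test for the mean of both alleles. The lowest unadjusted limma p among them was 0.0346, at CYP71B5 (adjusted p = 0.0637). Of the 3 genes of other families measured beside CYP71B5 to CYP71B31, AT3G53270 rose by 0.33 and AT3G53320 fell by 1.27. The change of AT3G53310 was -0.16 and did not pass. Beside the run on chromosome 1, 4 such genes were measured, of which 1 was lower and 3 did not pass. For the mean of both alleles, 23.2% of all genes tested were higher and 28.8% lower. The members outside these runs were CYP71B6 and CYP51G2 on chromosome 2, CYP71B38 and CYP78A9 on chromosome 3, and CYP84A4 and CYP79A2 on chromosome 5. CYP71B genes are close relatives, and the probe sequences were not analysed here. Signal from a related gene, measured or not, therefore cannot be told apart from that of the named gene.

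The alleles were then compared directly, bin4-2 minus bin4-1. In limma's test 0 of the 23 P450 genes differed in either direction, beside 0.12% of all genes higher and 0.127% lower in bin4-2, while 2 had an unadjusted p under 0.05. CYP71B26 was 0.46 ± 0.12 higher in bin4-2 (SE, 95% interval 0.20 to 0.72, unadjusted p = 0.00254, limma adjusted p = 0.239). CYP71B22 was lower in bin4-2, with a log2 difference of -0.24 (interval -0.46 to -0.01, limma adjusted p = 0.696). For the strongly changed genes the log2 difference was -0.10 at CYP71B23 (interval -0.33 to 0.13), -0.21 at CYP71B6 (-0.43 to 0.00), -0.06 at CYP71B24 (-0.29 to 0.16) and 0.01 at CYP71B34 (-0.28 to 0.29). These intervals do not show that the alleles act alike. Over all 23 genes they reached from -0.46 to 0.72.

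**Figure D4:**
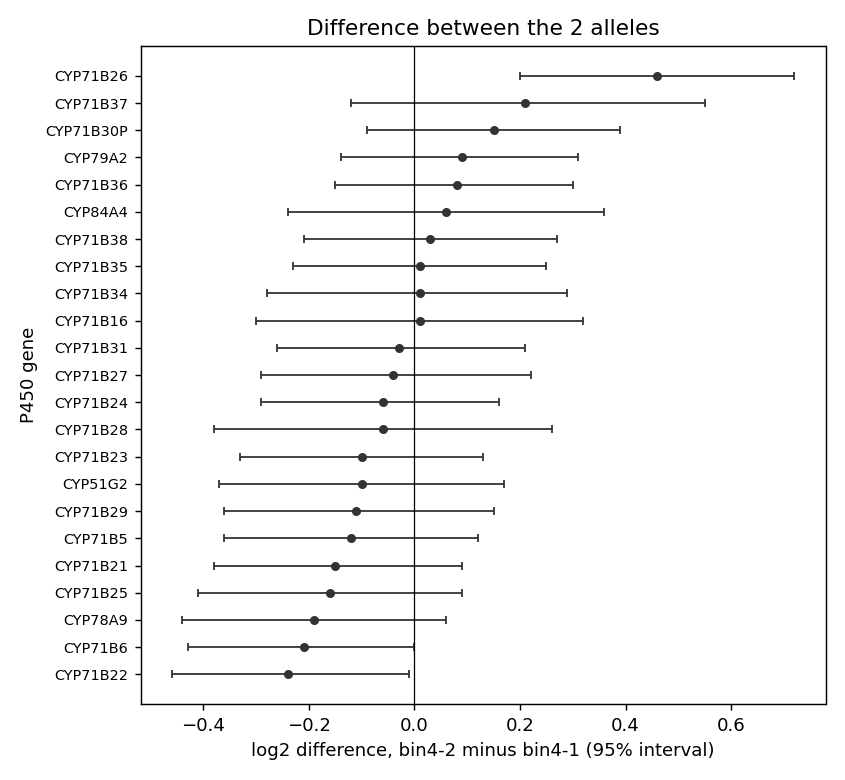
Log2 difference between the alleles, bin4-2 minus bin4-1 (horizontal axis), for each P450 gene with its 95% interval from limma, not adjusted for the number of genes. CYP71B26 is highest at 0.46 and CYP71B22 lowest at -0.24, and the intervals of the other members include 0.

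Few other genes of the pathways that P450 enzymes serve were measured. Of 82 P450 genes listed under 16 roles, 4 were members (CYP71B6, CYP79A2, CYP71B31 and CYP78A9), so the hormone, sterol, carotenoid, lignin and cuticle P450 genes were not analysed here. Of 104 partner genes in 10 lists, 6 were measured, of which 4 were higher and 2 lower in each allele. Of all genes tested, 22% were higher and 25% lower in bin4-1, and 21.1% and 26.6% in bin4-2. Lists with so few measured genes do not describe a pathway. In the glucosinolate core pathway, the glucosyltransferase gene UGT74B1 changed by 0.36 and 0.37 on the log2 scale in bin4-1 and bin4-2 (limma adjusted p = 0.0178 and 0.0146). Both measured phenylpropanoid genes rose, CCR2, a cinnamoyl-CoA reductase, by 2.57 and 2.61 and HCT, a hydroxycinnamoyl transferase, by 0.59 and 0.52. OPCL1, a CoA ligase of jasmonate synthesis, rose by 0.46 and 0.62. BCAT4, which opens methionine chain elongation for aliphatic glucosinolates, fell by 1.87 and 1.35, and the lycopene cyclase gene LYC fell by 1.54 and 1.33.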

How the data were processed

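The authors deposited intensities made with RMA, per the submitters' processing notes. RMA corrects background, normalizes between arrays and summarises each probe set. Its version is not given in the sources used here. Total RNA was labelled with biotin, per the labels. The values are on a linear scale, so log2 was taken. Of 22810 probe sets, 64 are controls, 13513 list 1 gene in the platform annotation, 503 several and 8730 none. RefSeq (TAIR10.1) supplied current names for 13436 and the order of genes. For 146 genes with several probe sets the brightest was kept.

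All 13356 genes were fitted with limma 3.58.1 in R 4.3.3 (3 group means, 6 arrays, lmFit and eBayes, 8.25 prior degrees of freedom), two-sided, with Benjamini-Hochberg adjustment over all genes and a threshold of 0.05. The code was tested on simulated data. Plots used Python 3.11.15 and matplotlib 3.10.9. For arrays, their number limits the precision.

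Members, role lists and partner lists were chosen with earlier results of these data known, and the windows around the CYP71B runs after the annotation had been seen. Array values were given for members past the threshold in the mean of both alleles whose WT and mutant arrays do not overlap, for the role examples, and for CYP71B26, CYP71B5, CYP71B29 and CYP71B38, chosen after their values were seen. Partner genes named are all those measured. No sequences were used here.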

Additional observations from a re-analysis of the deposited data

Results flagged for a closer look

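CYP71B26 had every bin4-1 array below and every bin4-2 array above both WT arrays. The difference between the alleles, 0.46 on the log2 scale, did not pass limma's test (adjusted p = 0.239).

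A probe set that is listed with more than 1 P450 gene, and so was not among the members, was higher in the mean of both alleles than in WT. It is listed with CYP71B19 and CYP71B20, which lie in the run of chromosome 3 from CYP71B16 to CYP71B37. Its log2 level was 7.45 and 7.46 in WT, 7.71 and 7.55 in bin4-1 and 7.73 and 7.78 in bin4-2. The change was 0.23 ± 0.09 (SE, limma adjusted p = 0.0409 over all probe sets), with an adjusted p of 0.183 in bin4-1 and 0.0299 in bin4-2.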

How the results depend on the processing

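With the test limited to genes whose mean log2 level reached 5, 4 members were left. Of these, 3 were higher and 1 lower in bin4-1, and 3 and 0 in bin4-2 and in the mean of both alleles. Their median log2 changes were 1.46, 1.32 and 1.39, beside 0.06, 0.04 and 0.05 for all 5380 genes kept. The share of those genes called was not counted, so the counts of the 4 members have no baseline here. In the main test, 72.8% of genes not below the array median on every array were called in the mean of both alleles, in either direction. Of the 8 members as bright, 6 were called. CYP71B23, at 3.95 in WT, reached a mean log2 level of 5 only through its mutant arrays. Since 4 of the 6 arrays averaged are mutant, that filter favours rises. With at least 2-fold required, 3 were higher and 1 lower in each comparison with WT. Leaving out 1 array at a time gave 4 to 5 higher and 3 to 4 lower members in bin4-1, 4 to 5 and 4 to 5 in bin4-2, and 4 to 5 and 4 to 6 in the mean of both alleles. The alleles differed at 0 members each time. An arm left with 1 array is assumed to vary like the others. Calls gained in the mean of both alleles were those of CYP71B29 without WT replicate 2 (-0.36, adjusted p = 0.0246) or bin4-2 replicate 2 (-0.29, adjusted p = 0.0497), of CYP71B38 with all probe sets tested (adjusted p = 0.047) or without bin4-2 replicate 1 (-0.28, adjusted p = 0.0474), and of CYP71B5 with quantile normalization (-0.23, adjusted p = 0.0467) or without bin4-2 replicate 2 (-0.27, adjusted p = 0.0487). The cause was not tested. A replicate block by title suffix gave 5 higher and 4 lower members in the mean of both alleles, and the same counts as without it in every comparison. Same-numbered arrays did not deviate together (correlations from -0.04 to 0.08). Quantile normalization, median centring, an intensity trend, all probe sets and fits of only the groups compared kept each count within 1.5 times. Adding P450 genes under other names was not run, since 0 of the 25 listed were measured.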

Other observations

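CYP718, a P450 gene whose symbol carries no subfamily letter and so falls outside the rule, had log2 levels of 3.49 and 4.10 in WT, 3.10 and 3.41 in bin4-1 and 3.50 and 3.31 in bin4-2. The change of the mean of both alleles was -0.46 ± 0.16 (SE, limma adjusted p = 0.028 over all probe sets). It passed in bin4-1 (-0.54, adjusted p = 0.0292) and not in bin4-2 (-0.38, adjusted p = 0.102). The WT arrays of CYP718 lay far apart, and bin4-2 replicate 1 was slightly above WT replicate 1.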
